A study of Rattus norvegicus with 16 samples.

Results

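Astrocytes were followed here through 10 genes: Gfap, Aqp4, Slc1a2, Slc1a3, Gja1, Gjb6, S100b, Aldoc, Mlc1 and Slc4a4. Each was taken as the array feature, called a transcript cluster, whose annotation gives exactly that gene symbol, and all 10 were found, with 1 cluster each. They stand among 14324 genes named in this way and 27342 clusters in all. The values are log2 expression levels normalised by RMA on Affymetrix arrays of total RNA from rat hippocampus and cortex. All animals were male Sprague-Dawley rats, 15 months old when the experiment began, so the 12-week groups were also older at sampling than the 6-week groups. The study asked how eating curcumin, the yellow pigment of turmeric, changed gene expression in the aged brain. The 8 groups were hippocampus and cortex of rats fed curcumin in chow for 6 weeks, hippocampus and cortex of their untreated controls, and the same 4 groups after 12 weeks. Each group has 2 arrays, and each array was made from the pooled tissue of 3 rats, so single animals cannot be compared. The labels call the 2 arrays biological replicates while the design text speaks of duplicate arrays of an RNA sample, so the p-values measure the spread between arrays, which may be technical. In tissue RNA, fewer astrocytes and less RNA per astrocyte cannot be told apart.

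Astrocytes wrap synapses with fine processes and cover brain vessels with endfeet, where water and ions pass between blood and tissue. They clear glutamate and potassium after neuronal firing and are joined by gap junctions into a network. The 10 genes fall into 5 roles. Gfap encodes the intermediate filament of the astrocyte skeleton, S100b a calcium-binding protein and Aldoc the brain form of the glycolytic enzyme aldolase. Aqp4 is the water channel of the endfoot, and Mlc1 is an endfoot membrane protein whose loss in humans causes a leukodystrophy with brain swelling. Slc1a2 (GLT-1) and Slc1a3 (GLAST) are the glutamate transporters of astrocytes. Gja1 and Gjb6 encode the connexins of their gap junctions, and Slc4a4 carries sodium and bicarbonate across the membrane.

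The dentate gyrus genes Prox1 and C1ql2 kept the tissues apart on all 16 arrays. Wfs1, the other hippocampal gene measured, overlapped, with 8.79 to 9.88 in the hippocampus and 8.38 to 9.77 in the cortex. Of the cortex genes listed 2 had a cluster. Fezf2 averaged lower in the cortex, 7.78 against 8.27, and Rspo1 averaged 6.68 against 6.63, so the cortex label was checked by low dentate gyrus genes alone. Some arrays stood apart. The mean level of 7 olfactory bulb genes was 7.41 and 8.65 on the control cortex arrays at 6 weeks and 6.68 to 7.24 on the other 14. The mean of 5 ependyma and choroid plexus genes was 6.81 and 8.69 on the control hippocampus arrays at 6 weeks and 8.23 on 1 curcumin hippocampus array at 6 weeks, against 5.63 to 6.13 on the other 13.

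The promoters of 3 genes are shown. Mlc1 and Aldoc were the members whose lower values passed the test in the curcumin cortex at 12 weeks, where all 10 averaged lower. Slc1a3 and Mlc1 followed the other members most closely over the arrays. Each stretch is the 300 bases around the first listed start site of the gene in RefSeq, rat build GRCr8, most of them upstream, written 5′ to 3′ along the gene. All 10 genes had such an entry. Capitals mark TTGGCA, the half-site bound by nuclear factor I proteins, which are regulators of astrocyte genes, and GGGCGG, the GC box, each on either strand.
Mlc1, chr7:121946649-121946948, minus strand: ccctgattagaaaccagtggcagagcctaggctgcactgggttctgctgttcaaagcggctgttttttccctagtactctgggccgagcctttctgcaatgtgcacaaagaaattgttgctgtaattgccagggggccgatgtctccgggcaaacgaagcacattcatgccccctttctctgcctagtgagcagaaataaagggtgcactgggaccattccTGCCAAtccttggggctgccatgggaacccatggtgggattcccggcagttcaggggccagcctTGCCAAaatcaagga
Slc1a3, chr2:59557759-59558058, minus strand: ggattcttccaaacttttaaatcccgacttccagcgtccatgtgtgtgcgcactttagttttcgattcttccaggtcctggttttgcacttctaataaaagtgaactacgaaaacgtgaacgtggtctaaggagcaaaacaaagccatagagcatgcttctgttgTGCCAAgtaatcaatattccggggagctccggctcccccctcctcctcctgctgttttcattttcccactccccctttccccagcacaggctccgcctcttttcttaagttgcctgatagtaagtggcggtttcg
Aldoc, chr10:63715294-63715593, plus strand: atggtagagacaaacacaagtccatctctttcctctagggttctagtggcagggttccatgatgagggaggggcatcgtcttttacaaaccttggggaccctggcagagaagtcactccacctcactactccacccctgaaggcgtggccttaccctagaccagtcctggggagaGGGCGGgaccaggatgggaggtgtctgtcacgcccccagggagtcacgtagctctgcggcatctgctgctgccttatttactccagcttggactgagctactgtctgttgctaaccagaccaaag
The half-site TTGGCA was found in 3 of the 10 promoters (Mlc1, with 2 matches, Slc1a3 and S100b) and in 13.6% of the promoters of 27457 genes. The GC box was found in 4 of the 10 (Aqp4, Slc1a2, Gjb6 and Aldoc) and in 34.9% of all. The STAT motif TTCNNNGAA was found in 0 of the 10 and in 8.7% of all. These matches describe the letters in the window and do not locate bound sites.

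By mean level the 10 genes ranked high among all clusters, from the 88.1 percentile (Gjb6) to the 99.4 percentile (Aldoc). Values given for all clusters therefore come mostly from dimmer clusters. The 10 genes differed widely in how well the 2 arrays of a group agreed. Aldoc was the tightest, with a within-group SD of 0.039 on the log2 scale, followed by Slc1a2 (0.048), S100b (0.058), Mlc1 (0.072), Gja1 (0.077), Slc1a3 (0.081) and Aqp4 (0.13). Gfap (0.27), Gjb6 (0.26) and Slc4a4 (0.23) were among the noisiest 5% of all clusters. A log2 difference that is large for Aldoc can therefore lie within array noise for Gfap. The arrays of control hippocampus at 12 weeks gave Gfap 9.79 and 10.42, and those of curcumin cortex at 12 weeks gave 8.98 and 9.66. On the second of these pairs 9 of the 10 genes were lower on replicate 1 than on replicate 2, with a median gap of 0.23, so that array carries much of what is described for the cortex at 12 weeks.

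**Figure D1:**
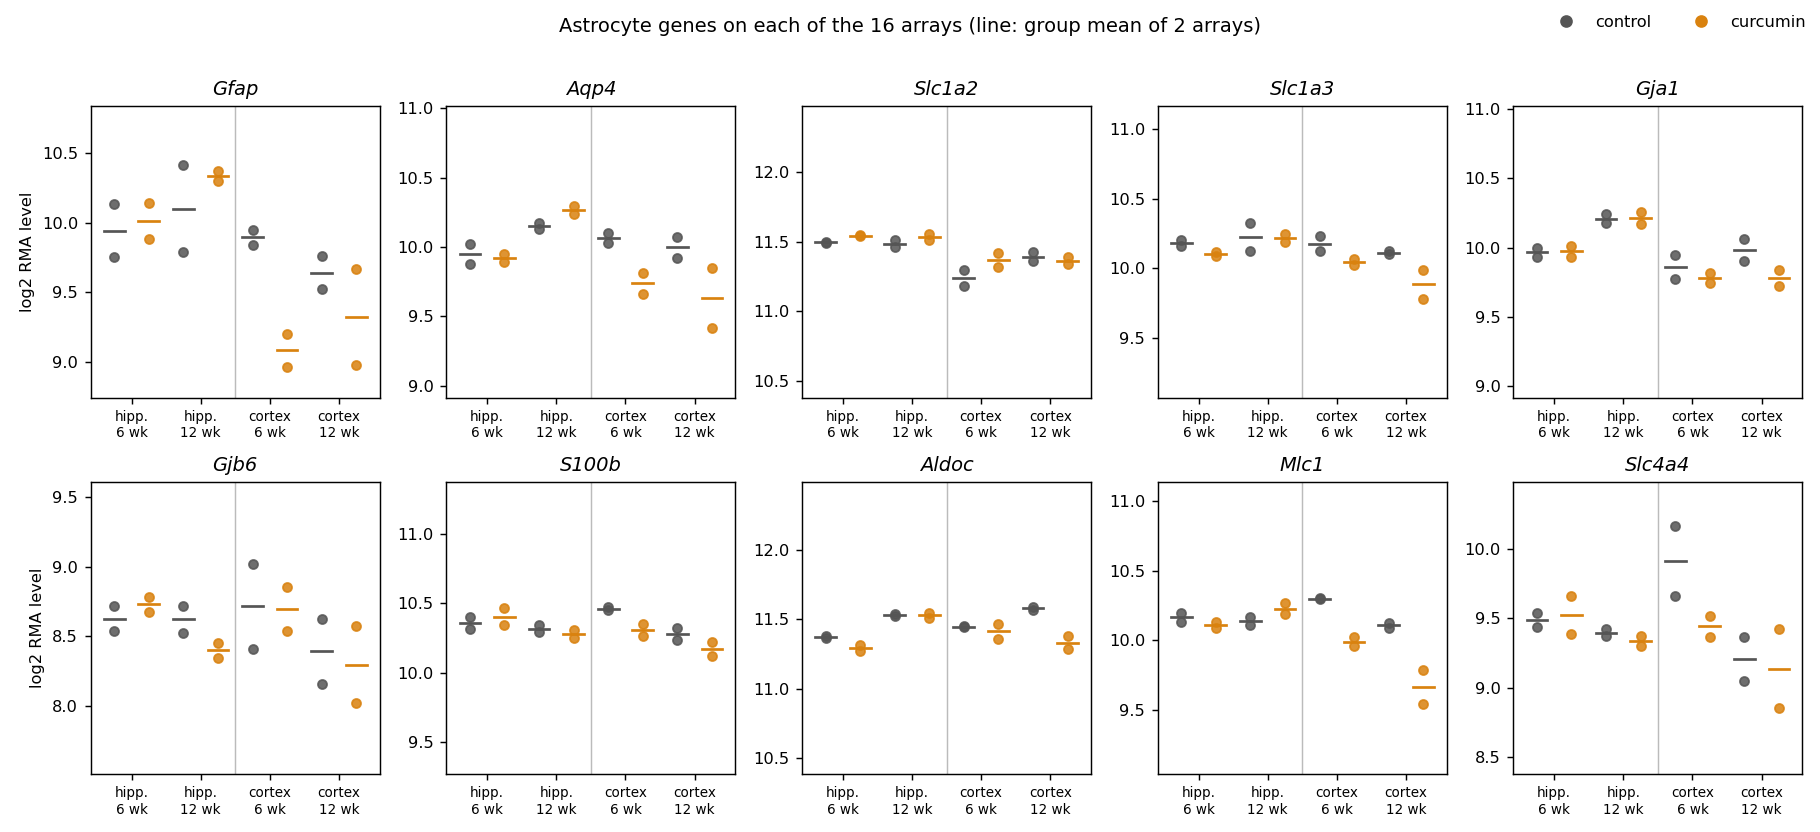
Log2 level of each of the 10 genes on each of the 16 arrays (y axis), by tissue and weeks of diet (x axis). Points are arrays, short lines are means of 2 arrays, grey is control and orange curcumin. All panels span the same 2.1 log2 units. The curcumin cortex arrays sit below their controls for Mlc1, Aqp4, Slc1a3 and S100b at both durations. Gfap, Gjb6 and Slc4a4 show the widest gaps between arrays of a group.

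Between the tissues, 5 of the 10 astrocyte genes, Gfap, Gja1, Aqp4, Slc1a2 and Mlc1, were higher in the hippocampus and 0 in the cortex. This was tested with limma in the mean over the 4 combinations of diet and duration, with a call at an adjusted p under 0.05, and 6.05% of all clusters were called higher in the hippocampus and 9.67% in either direction. The median difference of the 10 genes was 0.14, against 0.00 for all clusters, and 9 of the 10 were positive. The filament gene Gfap differed most, by 0.61 (SE 0.12, adjusted p = 0.00709, limma), or 1.53-fold. It ran from 9.75 to 10.42 (median 10.14) on the 8 hippocampal arrays and from 8.96 to 9.95 (median 9.59) on the 8 cortical arrays, so the tissues overlapped.

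The glutamate transporter Slc1a2 differed less but without overlap. Its lowest hippocampal array was 11.46 (median 11.51, highest 11.56) and its highest cortical array 11.43 (lowest 11.18, median 11.35), a difference of 0.17 (SE 0.030, adjusted p = 0.00396). It was the 1 member of 10 whose hippocampal arrays all lay above the cortical ones, as 1.13% of all clusters did. The gap junction gene Gja1 was higher by 0.24 (SE 0.040, adjusted p = 0.00271), with 9.93 to 10.26 (median 10.09) in the hippocampus and 9.72 to 10.06 (median 9.83) in the cortex. The endfoot genes followed with smaller margins. Aqp4 was higher by 0.21 (SE 0.060, adjusted p = 0.0458) and Mlc1 by 0.15 (SE 0.038, adjusted p = 0.0346), and their tissues overlapped on the arrays. Genes of other cells differed between the tissues as well: all 10 oligodendrocyte genes averaged higher in the hippocampus without passing (median 0.23), all 5 ependyma and choroid plexus genes did so (median 0.42), and all 7 olfactory bulb genes averaged lower (median -0.31, 2 called). Of 12 neuronal genes 4 were called higher and 2 lower in the hippocampus, and all 6 pericyte genes averaged lower (median -0.14, 0 called). Their part in the difference was not tested.

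The remaining members gave no call. Slc1a3 was higher by 0.13 (adjusted p = 0.0828), while Gjb6 (0.07), S100b (0.03), Slc4a4 (0.01) and Aldoc (-0.01) had 95% intervals that spanned 0. For Aldoc the interval was narrow, from -0.07 to 0.05, and for Gjb6 it was wide, from -0.18 to 0.32. The calls of Aqp4 and Mlc1 lay close to the threshold: leaving out 1 array ended the first for 13 of 16 arrays and the second for 11 of 16, with adjusted p up to 0.109 and 0.0869. Those of Gfap, Slc1a2 and Gja1 held without any single array.

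By group of rats the tissue difference took different sizes, and the test of that change with curcumin, given with the curcumin comparisons, called 0 members. In the controls at 6 weeks, 0 of the 10 genes were called by limma (1.96% of all clusters), 1 passed at an unadjusted p under 0.05 (12.3% of all clusters), and the median was -0.08. Gfap differed there by 0.05 (SE 0.24), and Mlc1 (-0.13), Aqp4 (-0.12) and Slc4a4 (-0.42) were lower in the hippocampus without passing. These are the arrays with raised olfactory bulb and choroid plexus genes, whose part in the values was not tested. In the controls at 12 weeks 9 of 10 were positive with a median of 0.13, again with 0 called (1.61% of all clusters) and 1 under an unadjusted 0.05 (10.9%), Gja1 (0.23, SE 0.079, adjusted p = 0.264). In the curcumin rats Gfap differed by 0.93 at 6 weeks and 1.02 at 12 weeks, and Mlc1 by 0.12 and 0.56. In the mean without the control 6-week condition, a choice made after the values were seen, limma called 5 genes, at 7.93% of all clusters. Gfap differed there by 0.80 (SE 0.14, adjusted p = 0.00409). In the mean of the 12-week conditions alone, chosen likewise, 5 were called at 7.19% of all clusters. Slc1a3 (0.22, adjusted p = 0.0407) stood there in place of Slc1a2 (0.13, adjusted p = 0.104). Both means took their spread from the fit of all 16 arrays, including the arrays left out of the means.

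**Figure D2:**
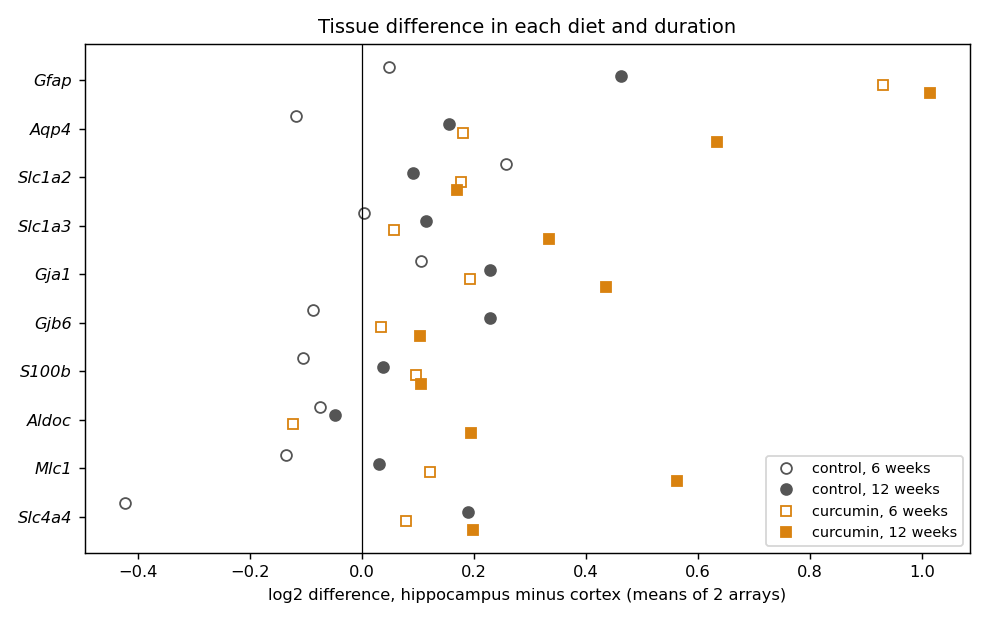
Hippocampus minus cortex on the log2 scale (x axis) for each gene (y axis), as differences between means of 2 arrays in each combination of diet and duration. Gfap runs from 0.05 in controls at 6 weeks to 1.02 in curcumin rats at 12 weeks, and Slc1a2 stays between 0.09 and 0.26.

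In the cortex after 12 weeks of curcumin, all 10 astrocyte genes averaged lower than in control cortex and 2 of them passed the test, both lower, Mlc1 and Aldoc. Over all clusters 1.59% were called lower and 3.24% in either direction. The median of the 10 genes was -0.22, against 0.00 for all clusters, of which 49.8% were negative. Most of those clusters are dimmer than the members. Under quantile normalization of all arrays the differences were smaller, -0.39 for Mlc1 and -0.19 for Aldoc. For 6 of the 10 both curcumin arrays lay below both controls, as they did for 22% of all clusters, and for 0 of the 10 above, against 22.3%.

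Mlc1 read 10.12 and 10.09 on the control arrays and 9.54 and 9.79 on the curcumin arrays. The groups were apart, and the control arrays lay close together. The gene fell by 0.44 (SE 0.076, 95% interval -0.61 to -0.27, adjusted p = 0.0128, limma), to 0.736 of the control level. Its call did not hold without curcumin replicate 1 (-0.32, adjusted p = 0.0566), control replicate 1 (-0.43, adjusted p = 0.12) or control replicate 2 (-0.46, adjusted p = 0.061), nor when the cortical arrays were fitted alone (adjusted p = 0.105).

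Aldoc read 11.57 and 11.59 on the control arrays and 11.29 and 11.38 on the curcumin arrays, again apart. It fell by 0.25 (SE 0.056, 95% interval -0.37 to -0.12, adjusted p = 0.0409), or to 0.843 of the control level. The call lay close to the threshold. It was lost in 12 of the 16 fits that left out 1 array, among them those without curcumin replicate 1 (-0.20, adjusted p = 0.176) or 2 (-0.29, adjusted p = 0.0766) and those without control replicate 1 (-0.26, adjusted p = 0.2) or 2 (-0.24, adjusted p = 0.175).

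Among the members that did not pass, Aqp4 read 9.92 and 10.07 in controls and 9.42 and 9.85 with curcumin, a difference of -0.37 (SE 0.12, adjusted p = 0.139). Slc1a3 differed by -0.23 (SE 0.082, adjusted p = 0.186) and Gja1 by -0.20 (SE 0.079, adjusted p = 0.24), each with both curcumin arrays below both controls. S100b differed by -0.11 with the arrays apart as well. Gfap differed by -0.32 (SE 0.24, adjusted p = 0.65) and its arrays overlapped. The interval of Slc1a2 was narrow around a small value, -0.03 (-0.16 to 0.10), and those of Gjb6 (-0.60 to 0.40) and Slc4a4 (-0.50 to 0.36) were wide. Without curcumin replicate 1, the array that was low in 9 genes, 7 of 10 members were negative, the median was -0.13 and 0 were called. Without curcumin replicate 2, 10 of 10 were negative, the median was -0.35 and 2 were called, Mlc1 and Aqp4.

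After 6 weeks of curcumin, 9 of the 10 astrocyte genes averaged lower in the cortex and Slc1a2 higher. By limma 0 were called (0.106% of all clusters, lowest adjusted p = 0.139), while 5 had an unadjusted p under 0.05, as did 12% of all clusters. The median was -0.14, against 0.00 for all clusters. When 1 of the 4 arrays was left out, 7 to 9 genes were negative, 0 were called and the median ran from -0.13 to -0.24, the last without control replicate 1. For 6 genes both curcumin arrays lay below both controls (17.4% of all clusters) and for 1, Slc1a2, above (18.9%). Gfap read 9.95 and 9.84 in controls and 8.96 and 9.20 with curcumin, groups that were far apart. The difference was -0.81 (SE 0.24, 95% interval -1.33 to -0.29, adjusted p = 0.199), or 0.57 of the control level, and Gfap was the single member past a rule of at least 1.5-fold or at most 0.66-fold, which 0.761% of all clusters passed downward.

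Mlc1 read 10.31 and 10.29 in controls and 9.96 and 10.03 with curcumin at 6 weeks, a difference of -0.31 (SE 0.076, adjusted p = 0.139). Aqp4 read 10.10 and 10.03 against 9.81 and 9.66, a difference of -0.33 (SE 0.12, adjusted p = 0.296). Both endfoot genes had their curcumin arrays below their controls. Slc4a4 differed by -0.47 (SE 0.20, adjusted p = 0.362) and S100b by -0.15 (SE 0.067, adjusted p = 0.385). For Slc4a4 the controls read 9.66 and 10.17 and the curcumin arrays 9.37 and 9.52, with one control far above the other. Slc1a2 went the other way, 0.13 (SE 0.061, adjusted p = 0.441). The control arrays of this comparison are those with the raised olfactory bulb genes, and genes of other cells moved as well, as given with the lists.

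In the hippocampus the same 10 genes showed no shared direction. After 6 weeks 6 were positive and 4 negative, the median was 0.02 and limma called 0 (0% of all clusters, lowest adjusted p of the members 0.9999), with 0 under an unadjusted 0.05 (2.03%). After 12 weeks 5 were positive and 5 negative, the median was 0.00 and 0 were called (0.00366% of all clusters), with 0 under an unadjusted 0.05 (5.11%). The intervals set the size that could be seen. At 12 weeks Mlc1 read 10.11 and 10.16 in controls and 10.19 and 10.27 with curcumin, a difference of 0.09 with an interval from -0.08 to 0.26, and Aldoc differed by -0.00 (-0.13 to 0.12). For Gfap, with 9.79 and 10.42 in controls and 10.37 and 10.30 with curcumin, the interval ran from -0.29 to 0.75. At 6 weeks all 5 ependyma and choroid plexus genes (median -0.46) were lower with curcumin in the hippocampus, without a call. So were all 4 red blood cell genes (median -0.50). The part of either in the members' values was not tested.

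**Figure D3:**
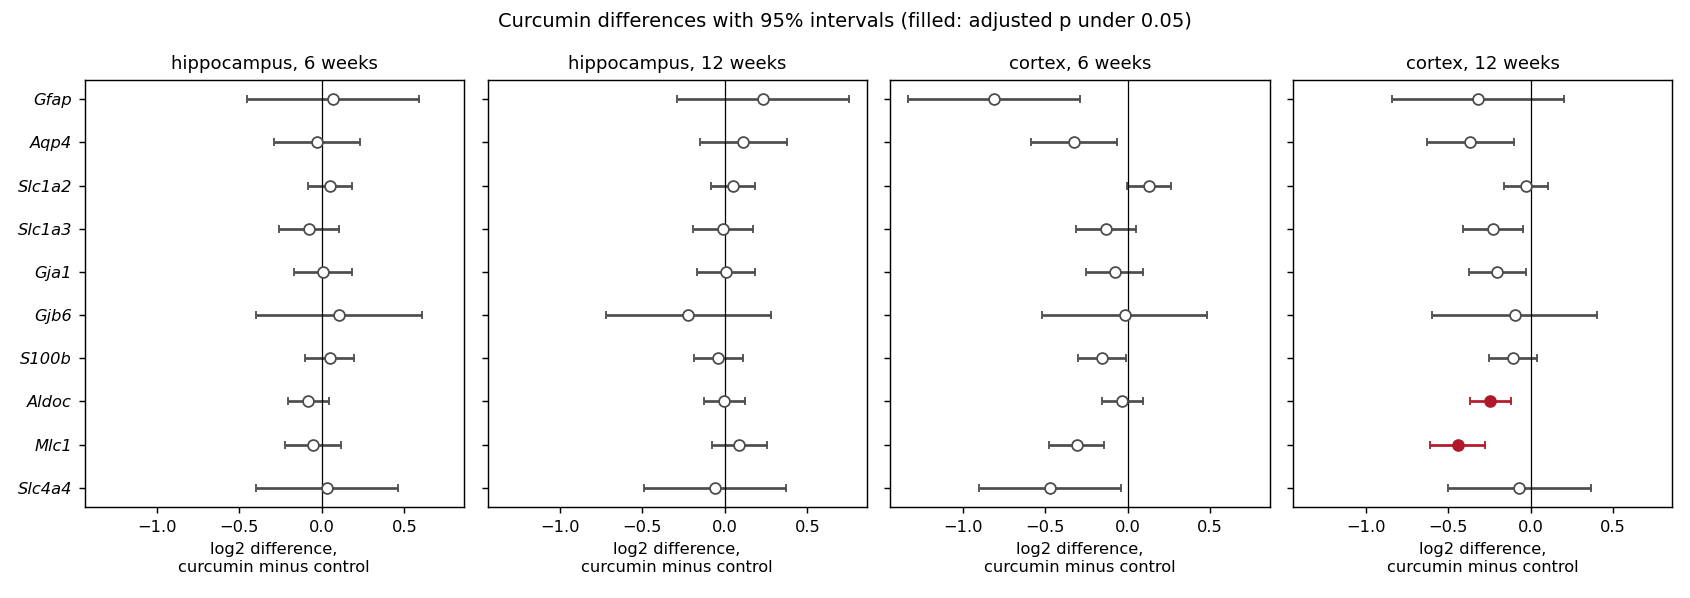
Curcumin minus control on the log2 scale (x axis) with 95% intervals from limma for each gene (y axis) in each tissue and duration, 2 arrays a group. Filled red points passed an adjusted p under 0.05 (Mlc1 and Aldoc, cortex, 12 weeks). In the cortex 9 and 10 of the 10 points lie left of 0, and in the hippocampus the points lie on both sides.

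Whether cortex and hippocampus differed in their response was tested directly. At 12 weeks the cortical minus the hippocampal effect was negative for 9 of 10 genes, but limma called 0 (0.19% of all clusters), with 3 under an unadjusted 0.05 (10.6%). Mlc1 came closest at -0.53 (SE 0.11, adjusted p = 0.081), then Aldoc at -0.24 (SE 0.080, adjusted p = 0.261) and Aqp4 at -0.48 (SE 0.17, adjusted p = 0.304). At 6 weeks 8 of 10 were negative, 0 were called (0% of all clusters) and 2 were under an unadjusted 0.05 (5.48%), with Gfap at -0.88 (SE 0.34, adjusted p = 0.812). Between durations 0 members were called in the cortex by limma (1.47% of all clusters), and 1 was under an unadjusted 0.05 (14.7%), Aldoc at -0.21 with an adjusted p of 0.227. In the hippocampus 0 were called (0%) and 0 were under an unadjusted 0.05 (3.43%).

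The mean effect over both durations was added after the values were seen. In the cortex Mlc1 fell by 0.38 (SE 0.054, 95% interval -0.49 to -0.26, adjusted p = 0.0134), 1 of 10 called lower, where 0.34% of all clusters were and 1.15% in either direction. This call was lost without control cortex 12 weeks replicate 1 (adjusted p = 0.0649). Aqp4 differed by -0.35 (SE 0.084, adjusted p = 0.0763) and Gfap by -0.56 (SE 0.17, adjusted p = 0.147). In the hippocampus Mlc1 differed by 0.02 (SE 0.054) and 0 members were called by limma (0.00366% of all clusters), with 0 under an unadjusted 0.05 (3.75%). The difference of these means between the tissues gave 0 calls by limma (0.0183% of all clusters) and 3 under an unadjusted 0.05 (8.44%), with Mlc1 at -0.39 (SE 0.076, adjusted p = 0.121).

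Control rats were also compared with each other after 12 and 6 weeks, on the same control arrays used above. Age and time in the experiment cannot be told apart here. In the cortex Slc4a4, the bicarbonate transporter, read 9.66 and 10.17 at 6 weeks and 9.05 and 9.37 at 12 weeks. The groups did not overlap, and the gene was lower at 12 weeks by -0.71 (SE 0.20, adjusted p = 0.0481), 1 of 10 members called, where 3.44% of all clusters were called lower and 8.85% in either direction. Without control cortex 6 weeks replicate 2, the array with the highest olfactory bulb genes, the difference was -0.45 (adjusted p = 0.32), and the call was lost in 13 of 16 fits that left out 1 array. All 7 olfactory bulb genes (median -1.08) and all 10 oligodendrocyte genes (median -0.54) were lower at 12 weeks too, and their part was not tested. Mlc1 (-0.19, adjusted p = 0.153) and S100b (-0.18, adjusted p = 0.122) averaged lower and Slc1a2 (0.15, adjusted p = 0.151) and Aldoc (0.13, adjusted p = 0.191) higher at 12 weeks, without a call. In the control hippocampus 0 members were called (4.27% of all clusters) and 2 were under an unadjusted 0.05 (17.5%), Gja1 (0.24, adjusted p = 0.122) and Aldoc (0.16, adjusted p = 0.162). Aldoc was higher at 12 weeks in the controls of both tissues, 11.37 and 11.38 against 11.53 and 11.54 in the hippocampus, without a call in either.

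The members did not move as one over the arrays. After each tissue's mean was removed, the correlation of a gene with the mean of the other 9 over 16 arrays was 0.88 for Slc1a3, 0.88 for Mlc1, 0.76 for Aqp4, 0.67 for Gfap and 0.57 for Slc4a4, and it was lower for Aldoc (0.48), S100b (0.47), Gja1 (0.36) and Gjb6 (0.29). Slc1a2 ran against the others at -0.35. Both glutamate transporters thus lay at opposite ends of this order. The arrays share pools and groups, so these correlations are a description. The mean of the 10 centred genes was lowest on curcumin cortex 12 weeks replicate 1 (-0.32) and highest on control cortex 6 weeks replicate 2 (0.22). Of 14314 other genes, those that followed this mean most closely were Fkbp14 (r = 0.93), Cmtm3 (0.93), Isoc1 (0.92), Slc39a1 (0.92), Acsbg1 (0.92), Rpn2 (0.92), Car5b (0.92) and Zdhhc20 (0.91). Acsbg1, a fatty acid activating enzyme, is the one among them that stood on another astrocyte list here.

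Other astrocyte genes in the cortex at 12 weeks were read from 4 lists, against 3.24% of all clusters called in either direction. Of the partners of the endfoot, such as the dystrophin complex and its matrix, 4 of 10 listed had a cluster, and Agrn alone was called. Agrn encodes agrin, a proteoglycan of the basal lamina that helps to gather Aqp4 at endfeet, and is also a gene that the study itself picked from these arrays. It read 7.98 and 7.97 in control and 8.60 and 8.60 in curcumin cortex, and rose by 0.62 (SE 0.070, adjusted p = 0.00279). Of 11 genes for ions, amino acids and glutamine 1 was called, the mitochondrial glutamate dehydrogenase Glud1, which read 10.03 and 9.93 in controls and 9.52 and 9.70 with curcumin and fell by 0.37 (SE 0.083, adjusted p = 0.0386). The endfoot partners had a median of 0.06 (2 of 4 negative), and the genes for ions, amino acids and glutamine one of -0.16 (7 of 11 negative). Of 14 further identity genes and of 14 genes of reactive astrocytes 0 were called, with medians of -0.06 and -0.01. The leading gene of each was the chaperone Clu (-0.24, adjusted p = 0.0626) and the metalloreductase Steap4 (-0.18, adjusted p = 0.656).

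At 6 weeks in the cortex the 4 lists gave 0 calls with medians of -0.12, -0.18, -0.11 and -0.09 in the same order. The closest were the fatty acid carrier Fabp7 (-0.92, adjusted p = 0.0862) and the zinc transporter Slc39a12 (-0.53, adjusted p = 0.0885). In the hippocampus they gave 0 calls at either duration, with medians between -0.10 and 0.12. Of 11 genes for ions, amino acids and glutamine, 9 averaged lower there at 12 weeks and 2 higher (median -0.10, range -0.88 to 0.20). The lowest was Kcnj16, a gene that the study also listed as lower in this comparison from the same arrays. The mean levels of the 11 genes did not overlap, 8.44 to 8.48 in control and 8.22 to 8.30 in curcumin hippocampus. The part of Kcnj16 in that gap was not tested. Of the identity genes 10 of 14, and of the reactive genes 11 of 14, averaged higher, with overlapping levels. Between tissues, where limma called 9.67% of all clusters in either direction, Slc39a12 (0.51, adjusted p = 1.3e-04) was higher in the hippocampus. Of the 14 identity genes 5 were called higher there. Among them were the nuclear factor I genes Nfix (0.32, adjusted p = 0.00768) and Nfia (0.26, adjusted p = 0.0148). Fabp7 (0.47, adjusted p = 0.00786) and the receptor gene Gpr37l1 (0.25, adjusted p = 0.032) were others. In the 6-week controls Fabp7 averaged lower in the hippocampus (-0.28). Agrn (-0.31, adjusted p = 2.4e-04) and the filament gene Vim (-0.65, adjusted p = 0.0421) were higher in the cortex. Vim thus differed in the opposite direction to Gfap, which is also a filament gene.

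Genes of other cells moved beside the astrocyte genes in the cortex. At 6 weeks all 10 oligodendrocyte and myelin genes averaged lower with curcumin (median -0.81, range -0.90 to -0.59), as were all 11 microglial genes (median -0.34), all 4 red blood cell genes (median -0.93) and all 7 olfactory bulb genes (median -1.10), with 0 called in these lists. Their mean levels in control and curcumin cortex were 9.01 to 9.51 and 7.99 to 8.97 for oligodendrocytes, 7.38 to 7.57 and 7.11 to 7.14 for microglia, 6.84 to 7.92 and 6.33 to 6.52 for red blood cells, and 7.41 to 8.65 and 6.92 to 6.92 for the olfactory bulb. Of 12 neuronal genes 10 were higher (median 0.29), 2 of them called. Medians were smaller for oligodendrocyte precursors (-0.19), endothelium (-0.14), pericytes (-0.14) and ependyma (-0.25), with 0 called. Their part in the lower astrocyte values was not tested. At 12 weeks these lists were closer to 0, with medians of -0.14 for oligodendrocytes (10 of 10 negative), 0.08 for microglia, 0.01 for neurons, -0.27 for red blood cells and 0.12 for the olfactory bulb, while 6 of 7 endothelial genes averaged lower (median -0.21). Those of oligodendrocyte precursors (0.01), pericytes (-0.02) and ependyma (0.03) lay near 0. Oligodendrocyte levels at 12 weeks overlapped, 8.51 to 8.98 in control and 8.32 to 8.76 in curcumin cortex, as did those of the olfactory bulb, 6.98 to 6.98 and 6.68 to 7.24. Those of endothelium (7.40 to 7.48 in control and 7.24 to 7.39 in curcumin cortex) and red blood cells (6.76 to 7.12 and 6.64 to 6.72) did not overlap and were lower with curcumin, as were the members, and their part was not tested. The members' mean level was 10.04 to 10.09 in control cortex at 12 weeks, and 9.72 and 10.002 on the curcumin arrays, of which the second lay just below the controls.

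**Figure D4:**
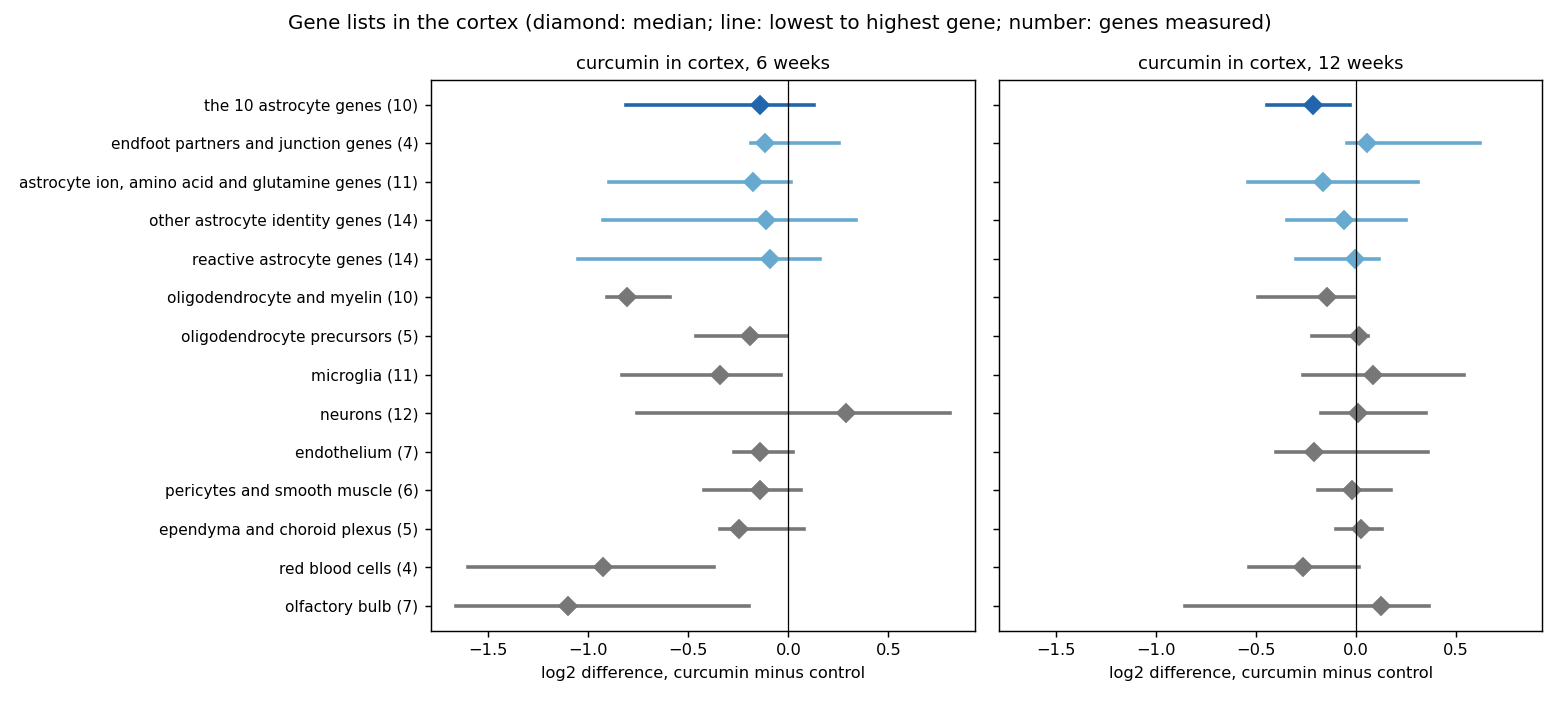
Curcumin minus control on the log2 scale (x axis) in the cortex at 6 weeks (left) and 12 weeks (right) for the 10 astrocyte genes, 4 other astrocyte lists (light blue) and 9 lists of other cells or regions (grey), with the number of genes measured. Diamonds are list medians and lines run from the lowest to the highest gene. At 6 weeks the medians of oligodendrocyte (-0.81), red blood cell (-0.93) and olfactory bulb genes (-1.10) lie further from 0 than that of the 10 genes (-0.14), and at 12 weeks the 10 genes lie at -0.22, beside endothelium at -0.21 and red blood cells at -0.27.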

How the data were processed

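Affymetrix arrays of rat hippocampus and cortex were analysed from the log2 values that the authors deposited, made with Affymetrix Expression Console and RMA per the labels. It holds 27342 transcript clusters on 16 arrays without missing values, and the array medians lie between 6.35 and 6.44. The study's methods name a rat exon array and the annotation is that of a rat gene array, which was not settled here. No probe-level data were used, so background and probe effects were not examined, and the quantile step of RMA can narrow differences between arrays. Symbols came from the platform annotation (1 symbol for 15097 clusters, several for 323, none for 11922).

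Group means of all 16 arrays were fitted with limma 3.58.1 in R 4.3.3 (8 residual and 3.12 prior degrees of freedom). Each of 13 comparisons was adjusted over the full set of clusters by Benjamini-Hochberg, and 3 more were added after the values were seen. A call is an adjusted p under 0.05. The number of arrays limits the precision. The steps were tested on simulated data. The random block used statmod 1.5.0 and figures matplotlib 3.10.9 in Python 3.11.15. Promoters are RefSeq sequences of build GRCr8.

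The members and the 15 other gene lists were chosen with earlier results of these data known. In each comparison all 10 members are named. From each of the 4 other astrocyte lists, up to 4 called genes with the largest moderated t are named in the curcumin and mean tissue comparisons, or at most 2 uncalled ones. From other lists only the leading gene may be named, and the 8 genes most like the members' mean are given. Alternatives were a filter on dim clusters, 3 scalings, smaller sets of arrays, a variance trend, array weights, 2 kinds of block, clusters with 1 symbol, another threshold, a 1.5-fold rule and leaving out each array. Averaging several clusters of a gene did not apply, since each member has 1.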

Additional observations from a re-analysis of the deposited data

Results flagged for a closer look

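At 12 weeks both curcumin arrays lay below both controls for Mlc1 in the cortex and above both in the hippocampus. The hippocampal difference of 0.09 had an interval from -0.08 to 0.26 that spanned 0, so a rise there was not shown. The cortical minus the hippocampal effect was -0.53 (SE 0.11, limma adjusted p = 0.081), which did not pass. Aqp4 showed the same arrangement of arrays, with a difference of -0.48 (SE 0.17, limma adjusted p = 0.304), which did not pass either. Its hippocampal value was 0.11, with an interval from -0.15 to 0.38 that spanned 0.

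For Agrn, the agrin gene, the effect in the cortex differed between durations by 0.74 (12 minus 6 weeks, SE 0.099, limma adjusted p = 0.0137) and between tissues at 12 weeks by 0.70 (cortex minus hippocampus, SE 0.099, limma adjusted p = 0.0297). The gene was named by the study from the same arrays.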

How the results depend on the processing

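The sign of each of the 9 called member differences was the same under all 249 alternative fits of them. Many of these fits altered only the spread, the set of clusters, the threshold or arrays outside the comparison. In those the value stayed as it was, so its sign could not change. In the mean tissue difference, 5 members were called, 3 under quantile normalization of all arrays, 6 at an adjusted p under 0.10 (with Slc1a3), and 3 to 5 when 1 array was left out. In the cortex after 12 weeks of curcumin, 2 were called, 1 without the dimmest 25% of clusters, under either quantile normalization (across tissues or inside one), and with array medians subtracted, and 0 in fits of the tissue's arrays or of the comparison's 4 arrays and under the 1.5-fold rule. Leaving out 1 array gave 0 to 2. In control cortex, 12 against 6 weeks, 1 was called, 2 under either quantile normalization (S100b with Slc4a4), 0 with array medians subtracted or in fits of the tissue's or the comparison's arrays, and 0 to 1 without 1 array. In the cortical mean of both durations, 1 was called, 2 with a variance trend or at an adjusted p under 0.10 (Aqp4 with Mlc1), 0 in the tissue's arrays and 0 to 2 without 1 array. Between tissues in controls at 6 weeks, 0 were called, 1 (Slc1a2) with a variance trend, with array weights or at 0.10, and 0 to 1 without 1 array. The 1.5-fold rule gave 1 (Gfap) in the cortex at 6 weeks, and a threshold of 0.10 gave 1 (Mlc1) for the tissue difference of the 12-week effects. With the replicate block, 1 member (Mlc1) was called in the cortex at 12 weeks, where Aldoc had an adjusted p of 0.0533, and Aqp4 was lost from the mean tissue difference. Over all clusters the block moved the cortical calls at 6 weeks from 29 to 1 and those of the tissue difference at 12 weeks from 52 to 17. The replicate numbers were not shown to pair the tissues, since same-numbered arrays of one diet and duration deviated together with correlations of -0.15, 0.12, 0.15 and 0.16. The cause of these shifts was not tested. With 2 arrays a group, the intervals of the noisier members were wide, as for Gfap in the cortex at 12 weeks (-0.84 to 0.20).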
